A study of Mus musculus with 27 samples.

Results

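Kupffer cells, the resident macrophages of the liver, were followed through 10 marker genes in liver RNA of fasted mice that were then refed or given caged food. The genes were Clec4f, Vsig4, Cd5l, Timd4, Marco, Adgre1, Csf1r, Cd68, C1qa and C1qb. They were picked by gene name from the 45706 genes of the table of normalised read counts, and all 10 were found. The study consisted of 27 libraries of mRNA from whole liver of wild-type mice of the strain labelled C57/BLN6. All animals had been fasted for 16 h. Refed mice then had food for 30, 60, 120 or 240 min, mice of the caged food groups were given caged food for the same times, and fasted mice got neither. Each of the 9 groups held 3 libraries, described by the submitters as biological replicates, so there were 12 refed, 12 caged food and 3 fasted libraries. The series title names sensory perception of food and the postprandial liver as its subject, and the caged food groups set the presence of food apart from its ingestion. The age and sex of the mice and whether each library came from 1 animal are not given in the sources used here.

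Kupffer cells sit in the hepatic sinusoids, where they take up microbes, complement-coated particles, aged blood cells and apoptotic cells from portal blood. In the mouse they are maintained locally and depend on signalling through the receptor CSF1R, whose ligands are CSF1 and IL-34. Their identity is held by transcription factors that include LXR alpha (Nr1h3), ID3 and SPI-C. In whole liver RNA a lower marker level can come from fewer Kupffer cells or from less RNA per cell, and the 2 cannot be told apart here.

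No marker changed detectably after refeeding or with caged food. Between livers of the same group, however, the 10 markers varied together, and 1 caged food liver carried 1.91 to 3.24 times their usual level.

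Total normalised read counts per library were 40654573 to 50037562, behind which an estimated 25.6 to 52.5 M reads were assigned to genes, as judged from the steps between low values. Albumin (Alb), the defining product of hepatocytes, was abundant throughout, with a median of 3302550 in 26 of the livers. The liver with high markers was replicate 2 of caged food 60 min. Replicate 1 of refed 30 min carried pancreatic enzyme genes, by a mean of 6.88 on the log2 scale above all livers over 8 genes, while its Clec4f level (4696) lay within its group. At 240 min the titles of 2 libraries name one condition and their treatment labels the other. Over 200 genes that separated refed from caged food livers at 120 min, replicate 3 of refed scored 0.50 beside 0.77 and 0.57 for the other refed livers. Replicate 1 of caged food scored -0.64 beside -0.61 and -0.59, so the titles were followed. Grouped by treatment label instead, 0 markers were called as well, and the calls at 240 min given below for other genes were lost. P-values and confidence intervals rest on the spread between 3 livers of a group, pooled over the 9 groups, so the liver with high markers enters every comparison.

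The level of each marker was first set against its gene length, since longer genes collect more reads. Per kilobase of exon, the mean over 27 libraries was 2370 ± 740.2 normalised read counts for Cd5l, 1945 ± 506.2 for C1qb, 1937 ± 471.8 for C1qa and 1819 ± 385.3 for Clec4f (SD, n = 27). Vsig4 followed with 889.5 ± 222.7 and Csf1r with 584.3 ± 168.1 normalised read counts per kilobase (SD, n = 27). The lowest levels per kilobase were those of Cd68 (369.1 ± 81.5), Marco (290.8 ± 172.7), Adgre1 (269.2 ± 77.8) and Timd4 (155.8 ± 43.3; SD, n = 27). The steps from Clec4f to Vsig4, Csf1r and Cd68, and from Adgre1 to Timd4, held in 27 of 27 libraries. C1qb exceeded C1qa in 14 of 27 libraries and Marco exceeded Adgre1 in 12 of 27, so these neighbours did not differ beyond their spread. Cd5l exceeded C1qb in 25 libraries, and C1qa exceeded Clec4f, and Cd68 exceeded Marco, in 22 libraries each. Every marker was read in every library, the lowest single value being 140 normalised read counts of Marco.

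Whether promoter sequence has a part in how the markers varied together between livers was not tested. As examples of the sequence in front of the markers, 4 of their promoters are shown. They were read from a RefSeq table for GRCm38.p6 that covers 250 bases before to 50 bases after the start of a gene and that holds 7 of the 10 markers (Clec4f, Vsig4, Cd5l, Timd4, Marco, Cd68 and C1qb). The sequences run in the direction of the gene, 5′ to 3′, and all 4 genes are on the minus strand: Clec4f at chr6:83656067-83656366, Vsig4 at chrX:96293389-96293688, Marco at chr1:120504975-120505274 and C1qb at chr4:136886151-136886450. Capitals mark GAGGAA, the core of sites of the macrophage factor PU.1, and TGCTGA, the core of sites of MAF factors, on either strand.
Clec4f: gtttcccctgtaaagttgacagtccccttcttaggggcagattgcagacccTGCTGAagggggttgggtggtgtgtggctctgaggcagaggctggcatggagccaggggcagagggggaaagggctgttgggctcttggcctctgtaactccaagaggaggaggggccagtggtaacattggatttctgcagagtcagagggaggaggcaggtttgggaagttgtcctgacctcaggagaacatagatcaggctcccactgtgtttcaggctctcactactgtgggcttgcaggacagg
Vsig4: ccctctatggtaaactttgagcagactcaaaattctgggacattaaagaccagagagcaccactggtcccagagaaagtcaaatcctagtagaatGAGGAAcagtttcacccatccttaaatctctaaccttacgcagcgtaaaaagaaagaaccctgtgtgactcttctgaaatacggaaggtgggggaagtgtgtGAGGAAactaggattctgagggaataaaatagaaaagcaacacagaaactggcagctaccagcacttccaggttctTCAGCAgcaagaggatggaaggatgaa
Marco: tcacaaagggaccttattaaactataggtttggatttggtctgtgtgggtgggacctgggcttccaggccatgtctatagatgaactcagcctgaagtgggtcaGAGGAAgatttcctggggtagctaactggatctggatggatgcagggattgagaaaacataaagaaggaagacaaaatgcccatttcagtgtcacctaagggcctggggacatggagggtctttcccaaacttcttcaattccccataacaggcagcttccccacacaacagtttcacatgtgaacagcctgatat
C1qb: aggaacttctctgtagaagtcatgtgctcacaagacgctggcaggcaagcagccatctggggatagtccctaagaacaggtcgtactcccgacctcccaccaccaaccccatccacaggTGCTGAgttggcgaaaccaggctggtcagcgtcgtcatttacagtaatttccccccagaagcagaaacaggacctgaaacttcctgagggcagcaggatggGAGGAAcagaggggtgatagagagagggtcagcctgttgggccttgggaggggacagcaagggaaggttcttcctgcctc
GAGGAA was present in 5 of the 7 promoters (Vsig4, Cd5l, Marco, Cd68 and C1qb), and on either strand in 28.3% of all 32851 promoters of the table. TGCTGA was present in 5 of the 7 (Clec4f, Vsig4, Cd5l, Timd4 and C1qb) and in 19.5% of all promoters. The AP-1 motif TGANTCA was found in Cd68 alone of the 7 and in 7.81% of all promoters, and CACGTG, the E-box bound by MITF and TFE factors, in 0 of the 7 and in 7.15%. The end of TGCTGA can coincide with the start of TGANTCA or GAGGAA, but no matches overlapped in these 7 promoters. A match is a string of letters, not a measured binding site.

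In the GENCODE annotation of GRCm38, C1qa (ENSMUSG00000036887, chr4:136895917-136898803) and C1qb (ENSMUSG00000036905, chr4:136880129-136886187) are neighbours on the minus strand with C1qc between them (chr4:136889804-136893065). Clec4f (ENSMUSG00000014542) spans chr6:83644542-83656187, Marco (ENSMUSG00000026390) chr1:120474538-120505024 and Vsig4 (ENSMUSG00000044206) chrX:96247203-96293438, all on the minus strand. Cd5l (ENSMUSG00000015854) spans chr3:87357881-87371073 on the plus strand. Timd4 (ENSMUSG00000055546) lies at chr11:46810800-46844332 on the plus strand, and Cd68 (ENSMUSG00000018774) lies at chr11:69664213-69666153 on the minus strand of the same chromosome. Adgre1 (ENSMUSG00000004730) spans chr17:57358691-57483527 and Csf1r (ENSMUSG00000024621) chr18:61100598-61132149, both on the plus strand. Csf1r shares 873 bp of exon with Hmgxb3 on the opposite strand and contains Mir6983. The libraries were made with a stranded kit, but whether strand was used in counting is not given in the sources used here, so the Csf1r value may include reads of Hmgxb3. The other 9 markers overlap no annotated gene.

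The receptors that catch material from the blood are described first. Clec4f encodes a C-type lectin that in the mouse is found on Kupffer cells. In refed livers it stood at 4696, 5206 and 4653 normalised read counts at 30 min, 3922, 3645 and 3733 at 60 min, 3662, 4330 and 4945 at 120 min, and 4899, 4235 and 4708 at 240 min. In caged food livers it stood at 5054, 4479 and 5144 at 30 min, 3476, 8133 and 3937 at 60 min, 4109, 3952 and 4286 at 120 min, and 3398, 6057 and 3914 at 240 min. The 3 fasted livers had 4617, 4153 and 4002. Clec4f was the only marker of which any refed or caged food group did not overlap with the fasted livers: it lay above them after 30 min of refeeding and below them after 60 min. The differences were small, with log2 fold changes of 0.19 ± 0.21 at 30 min and -0.17 ± 0.21 at 60 min (SE), and neither passed the test (limma adjusted p = 0.825 and 0.701). Of all 15932 genes tested, 21.9% did not overlap between refed and fasted livers at 30 min, 27.7% at 60 min, 36% at 120 min and 43.2% at 240 min, so 1 marker of 10, or 0 at the later times, was below the background. Between caged food and fasted livers 0 markers were free of overlap, where 12.7%, 14.7%, 16.1% and 13.8% of all genes were at the 4 times. Between refed and caged food livers it was also 0, against 11.7%, 21.9%, 29.7% and 41.7%.

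Vsig4 encodes a complement receptor through which Kupffer cells bind opsonised particles. It ranged over 1029 to 1643 normalised read counts in 12 refed livers with a median of 1256, and over 1045 to 2638 in 12 caged food livers with a median of 1253, against 1407, 1000 and 1013 in the fasted livers. The 3 conditions overlapped, and the medians of refed and caged food livers were nearly equal.

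Marco, a scavenger receptor for bacteria and particles, was the most variable of the 10 markers. It had 221, 670 and 140 normalised read counts after 30 min of refeeding, 406, 234 and 917 after 60 min, 381, 488 and 1489 after 120 min and 508, 449 and 590 after 240 min. With caged food it had 861, 498 and 419 at 30 min, 331, 1473 and 350 at 60 min, 273, 542 and 824 at 120 min and 432, 857 and 581 at 240 min, and the fasted livers had 460, 412 and 309. Single livers in 3 of the 4 refed groups differed from their own group by several fold. Its standard deviation within groups was 0.83 on the log2 scale, against 0.28 for Clec4f and a median of 0.19 over all genes tested. The ratio of Marco to Clec4f was 0.0301 in the lowest and 0.301 in the highest library.

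Timd4, a receptor for phosphatidylserine on apoptotic cells, ranged over 217 to 456 normalised read counts in refed livers with a median of 320.5. Caged food livers had 208 to 645 with a median of 332.5, against 347, 311 and 263 in fasted livers. The 3 fasted values lay within the range of either other condition.

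Among the secreted products, Cd5l codes for a scavenger receptor protein that macrophages release into the plasma. It ranged over 3121 to 6727 normalised read counts in refed livers (median 4652) and 3326 to 10676 in caged food livers (median 4407), against 4749, 4124 and 3705 in fasted livers. C1qa and C1qb code for chains of C1q, the recognition molecule of the classical complement pathway. C1qa had 1607 to 2418 normalised read counts in refed livers (median 1863), 1616 to 4019 in caged food livers (median 1901) and 1965, 1689 and 1760 in fasted livers. C1qb had 1630 to 2604 in refed livers (median 2011), 1628 to 4331 in caged food livers (median 1902) and 2038, 1887 and 1746 in fasted livers. In each of the 3 genes the caged food range reached highest, through a single liver described below. The ratio of C1qa to C1qb stayed within 0.847 to 1.04 over the 27 livers, a 1.23-fold range, and that of C1qc to C1qb within 0.932 to 1.12.

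The other 3 markers, like several of those above, are also found in macrophages of other tissues. Csf1r, the growth factor receptor, had 2714 to 4450 normalised read counts in refed livers (median 3165) and 2362 to 7504 in caged food livers (median 3047), against 3575, 3045 and 2982 in fasted livers. Adgre1, the adhesion receptor detected by a widely used antibody against mouse macrophages, had 629 to 1266 in refed livers (median 842) and 612 to 1645 in caged food livers (median 805.5), against 901, 548 and 613 in fasted livers. Cd68, a glycoprotein of macrophage lysosomes, had 373 to 567 in refed livers (median 447) and 359 to 845 in caged food livers (median 415), against 490, 461 and 388 in fasted livers. Of the fasted livers, 2 had less Adgre1 than the median of either other condition and replicate 1 had more than both medians.

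**Figure D1:**
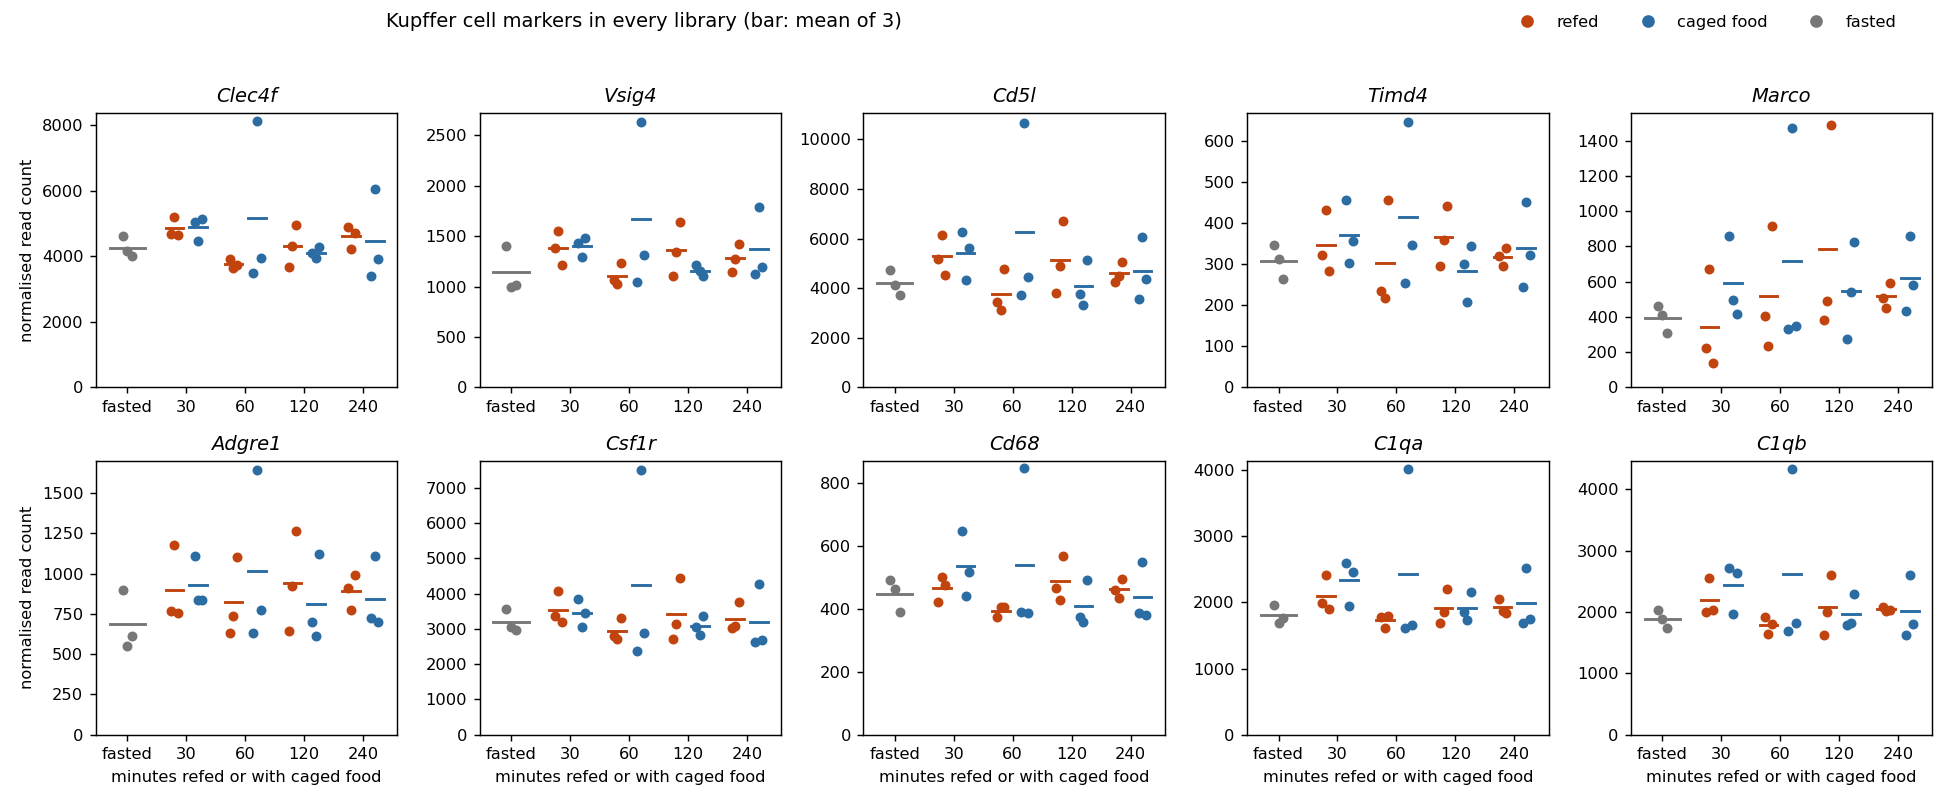
Normalised read counts of the 10 markers in the 27 libraries, by time, with 3 points and a bar for the mean in each group (refed left of caged food at each time, fasted at the low end). In 9 of the 10 panels the highest point is replicate 2 of the caged food 60 min group, with 8133 for Clec4f and 10676 for Cd5l.

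The comparison of refed with fasted livers asks whether eating alters the Kupffer cell signature. Of the 10 markers, 0 passed the test at 30, 60, 120 or 240 min (limma, adjusted p at least 0.385 over the 4 times), and 0 had an unadjusted p below 0.05, a level that 11.4%, 22.8%, 27.3% and 35.1% of all genes reached. Of all genes tested, 1.63% passed at 30 min, 11% at 60 min, 14.1% at 120 min and 24.3% at 240 min. The median log2 fold change of the 10 markers was 0.20 at 30 min, -0.09 at 60 min, 0.18 at 120 min and 0.12 at 240 min, against medians between -0.02 and 0.00 over all genes tested. Over the mean of the 4 times, all 10 fold changes were above 0, by 0.02 (Cd68) to 0.37 (Adgre1), with 0 called where 15% of all genes were, and 0 at an unadjusted p below 0.05 where 28.1% of all genes were. The 95% confidence interval of that change was -0.31 to 0.38 for Clec4f, -0.34 to 0.37 for Cd68 and -0.14 to 0.88 for Adgre1. For Marco it was -0.77 to 1.19, so that a 2.29-fold higher level in refed livers was still within the interval of this gene.

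The comparison of caged food with fasted livers asks whether food that is not eaten alters the signature. Again 0 of 10 markers passed at any of the 4 times (limma, adjusted p at least 0.529), and 0 had an unadjusted p below 0.05, where 7.05%, 9.85%, 7.7% and 4.72% of all genes did. Few genes passed the adjusted threshold: 0.0126% at 30 min, 0.22% at 60 min, 0.0377% at 120 min and 0% at 240 min. The median of the markers was 0.34 at 30 min, 0.33 at 60 min, -0.00 at 120 min and 0.11 at 240 min (log2). The 60 min value turned to -0.12, with 8 of 10 markers lower than in fasted livers, when replicate 2 of that caged food group was left out. Over the mean of the 4 times all 10 fold changes were above 0, with a median of 0.21, and 0 were called, as were 0% of all genes. An unadjusted p below 0.05 was reached by 0 markers and 4.05% of all genes. With replicate 2 of the caged food 60 min group left out, 7 of the 10 were above 0 and the median was 0.10. The 95% confidence interval with all libraries was -0.25 to 0.43 for Clec4f, -0.11 to 0.64 for Vsig4 and -0.48 to 1.49 for Marco. Both of these comparisons use the same 3 fasted livers, so their directions are not independent of each other. The labels give the fasted group no matched times, so food and elapsed time cannot be told apart in either comparison.

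**Figure D2:**
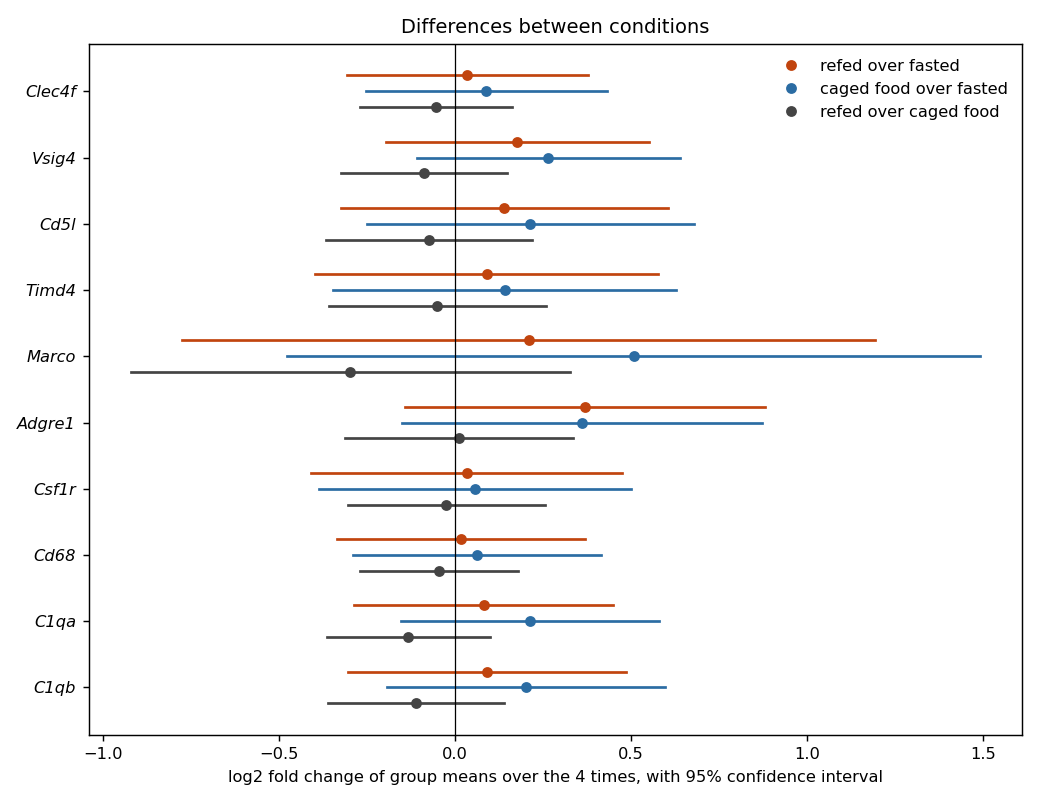
Log2 fold changes of the 10 markers between conditions, taken over the means of the 4 times, with 95% confidence intervals from limma (27 libraries). Every interval includes 0, and the intervals of Marco are the widest, reaching 1.49 for caged food over fasted.

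The comparison of refed with caged food livers at matched times asks what ingestion adds to the presence of food. Of the 10 markers, 0 passed at 30, 60, 120 or 240 min (limma, adjusted p at least 0.204), where 0.276%, 10.9%, 11.3% and 27% of all genes passed. Their median log2 fold change was -0.08 at 30 min, -0.36 at 60 min, 0.22 at 120 min and 0.03 at 240 min. At 60 min all 10 markers were lower in refed livers. Vsig4 had 1064, 1029 and 1235 normalised read counts in refed livers and 1045, 2638 and 1315 in caged food livers at that time. Cd5l had 3438, 3121 and 4783 in refed livers and 3714, 10676 and 4434 in caged food livers. In both genes 1 caged food liver stood far above the other 5 livers, which overlapped.

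The log2 fold change was -0.47 ± 0.23 for Vsig4 (limma adjusted p = 0.206) and -0.59 ± 0.28 for Cd5l (limma adjusted p = 0.204; SE). These were the only 2 of the 150 tests of markers with an unadjusted p below 0.05, and 24% of all genes reached that level in the same comparison. At 30, 120 and 240 min 0 markers did, against 7.53%, 24.3% and 37.2% of all genes. Without replicate 2 of the caged food group the values were -0.08 for Vsig4 and -0.13 for Cd5l, and 7 of the 10 markers were then higher in refed livers, with a median of 0.03. Leaving out replicate 1 of that group instead gave -0.75 for Vsig4, which then passed (limma adjusted p = 0.0406), and it was the 1 marker called under any setting. Over the means of the 4 times, 9 of 10 markers were lower in refed livers by a median of 0.06, and 0 were called where 31.3% of all genes were. An unadjusted p below 0.05 was reached by 0 markers and 40.9% of all genes. Once replicate 2 of the caged food 60 min group was left out, 3 of 10 were lower and the median was 0.04. The intervals were narrowest here, for example -0.27 to 0.16 for Clec4f, -0.27 to 0.18 for Cd68 and -0.36 to 0.10 for C1qa.

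No marker passed the F test for any difference among the 9 groups (limma, adjusted p of 0.563 for Cd5l to 0.964 for Csf1r), against 34.8% of all genes. The F test for a refed effect, relative to caged food, that varies over time was passed by 0 markers (limma, adjusted p of 0.417 for Cd5l to 0.883 for Adgre1), against 9.97% of all genes. Unadjusted p values below 0.05 numbered 0 among the markers in both F tests, against 45% of all genes in the first and 24.3% in the second.

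Within the groups, by contrast, the livers differed in all markers at once. After the group means were taken out, the 45 pairs of markers correlated over the 27 libraries with Pearson's r of 0.662 to 0.975 (median 0.877) and Spearman's rho of 0.643 to 0.935. In 45 of 45 pairs both coefficients passed a permutation test within groups (100000 resamples, highest p adjusted over the 45 pairs 0.00771 for r and 0.0114 for rho). The share of pairs of other genes that would pass was not computed. With the 2 libraries farthest from the median of the first gene of each pair left out, and group means not taken anew, the lowest r was 0.582. When the same was done after leaving out replicate 2 of caged food 60 min and taking the group means anew, it was 0.392. The closest pair was C1qa with C1qb (r = 0.975, rho = 0.935), followed by Vsig4 with Csf1r (r = 0.954) and Cd5l with Csf1r (r = 0.952). The loosest was Clec4f with Marco (r = 0.662, rho = 0.678). Marco had the lowest median r with the other 9 markers, 0.778, and Csf1r the highest, 0.943.

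**Figure D3:**
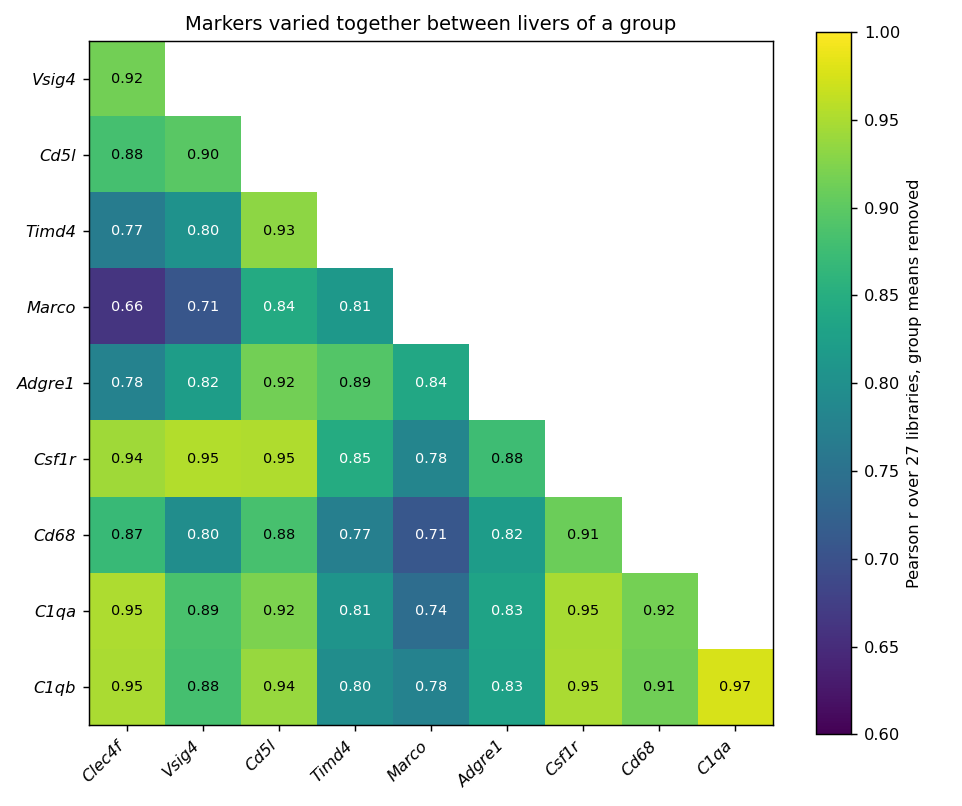
Pearson's r between markers over 27 libraries after removal of the group means, on the log2 scale, as a coloured and numbered grid. The row and column of Marco hold the lowest values, down to 0.66, and the 2 C1q chains the highest.

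The correlation did not rest on 1 liver alone. Without replicate 2 of the caged food 60 min group, r ranged over 0.514 to 0.945 with a median of 0.783, and both coefficients passed in 44 of 45 pairs. In 5 of the 27 libraries all 10 markers were above their own mean, and in 7 libraries none was. The 5 were replicate 2 of refed 30 min, replicate 1 of caged food 30 min, replicate 2 of caged food 60 min, replicate 3 of refed 120 min and replicate 2 of caged food 240 min. They came from both conditions and all 4 times. On average over the 10 markers they lay 0.33, 0.40, 1.08, 0.49 and 0.43 above the mean of all livers on the log2 scale, in that order. The standard deviation within groups was larger than the median gene's in all 10 markers, with 0.28 for Clec4f, 0.29 for Cd68, 0.31 for C1qa and Vsig4, 0.33 for C1qb, 0.37 for Csf1r, 0.39 for Cd5l, 0.40 for Timd4 and 0.43 for Adgre1. Much of this spread came from replicate 2 of the caged food 60 min group. With it left out the standard deviation was 0.18 for C1qa, 0.19 for Clec4f, 0.20 for Cd68, 0.22 for Vsig4 and C1qb, 0.23 for Csf1r, 0.29 for Cd5l, 0.35 for Timd4, 0.37 for Adgre1 and 0.75 for Marco. The first 3 of these were close to the median of 0.19 over all genes with all libraries.

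That liver, replicate 2 of caged food 60 min, held the highest of 27 values for 9 of the 10 markers. Its level was 1.91-fold the median of the other 26 livers for Clec4f, 1.93-fold for Cd68, 2.01-fold for Timd4, 2.12-fold for Adgre1, 2.16-fold for Vsig4, 2.17-fold for C1qa, 2.18-fold for C1qb, 2.39-fold for Cd5l and 2.45-fold for Csf1r. Marco was 3.24-fold the median, with 1473 normalised read counts, and was exceeded only by 1489 in replicate 3 of refed 120 min. Its 2 partners with caged food at 60 min did not share these high levels, with Csf1r at 2362 and 2890 against 7504. Replicate 1 of them stood at the other end, with the lowest Csf1r and the highest Alb (4761810) of the other 26 livers.

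Genes of other cell types moved with the markers in this liver to unlike degrees. The share of all tested genes that were highest in it was not computed. By list, 11 of 16 other Kupffer cell genes, 5 of 10 genes of iron and heme handling and 1 of 9 hepatocyte genes were highest in this liver. All 23 of 23 genes of a list of pan-macrophage and myeloid genes were highest in it, by a mean of 1.08 on the log2 scale above the mean of all livers. All 13 of 13 tested genes of monocytes and neutrophils were highest too, by a mean of 3.06, with S100a8 at 335 normalised read counts against a median of 21 in the other 26 livers, S100a9 at 734 against 33 and Ccr2 at 222 against 45. The summed value of that list, of which Fn1 (fibronectin, which hepatocytes also make) gave 172764, was 175629 in this liver against 77885 to 151913 in the others. Ly6g, a defining gene of neutrophils that was too low to be tested, was at 3 here and between 0 and 4 elsewhere. Genes of dendritic cells deviated by a mean of 0.88 (at most 0.68 in the other livers) and those of lymphocytes by 0.77 (at most 0.77 in the others).

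Stellate cell genes deviated in this liver by 0.43, within the range of the others (-0.52 to 0.59), and cholangiocyte genes by 0.14. Of 12 genes of sinusoidal endothelial cells, 0 were highest in it (mean 0.11), with Stab2 at 4889 against a median of 4403. The 9 hepatocyte genes deviated by a mean of 0.16, Alb among them being 0.822-fold the median. The 10 genes of iron and heme handling summed to 1432605 normalised read counts in it against 385776 to 592016 in the others, through Hp and Hpx, which code for haptoglobin and hemopexin, plasma proteins made by hepatocytes. Hp stood at 684335 and Hpx at 661306 there. The part of these other gene groups in the marker levels of this liver was not tested.

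In the other 4 livers with all markers above their mean, the monocyte and neutrophil list deviated by 0.74 (refed 30 min), 1.04 (caged food 30 min), -0.06 (refed 120 min) and 0.16 (caged food 240 min). The endothelial list deviated there by 0.04, 0.42, -0.01 and -0.00. In the last 2 of these livers the markers were thus high while genes of monocytes and neutrophils and of the endothelium were near the mean of all livers.

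**Figure D4:**
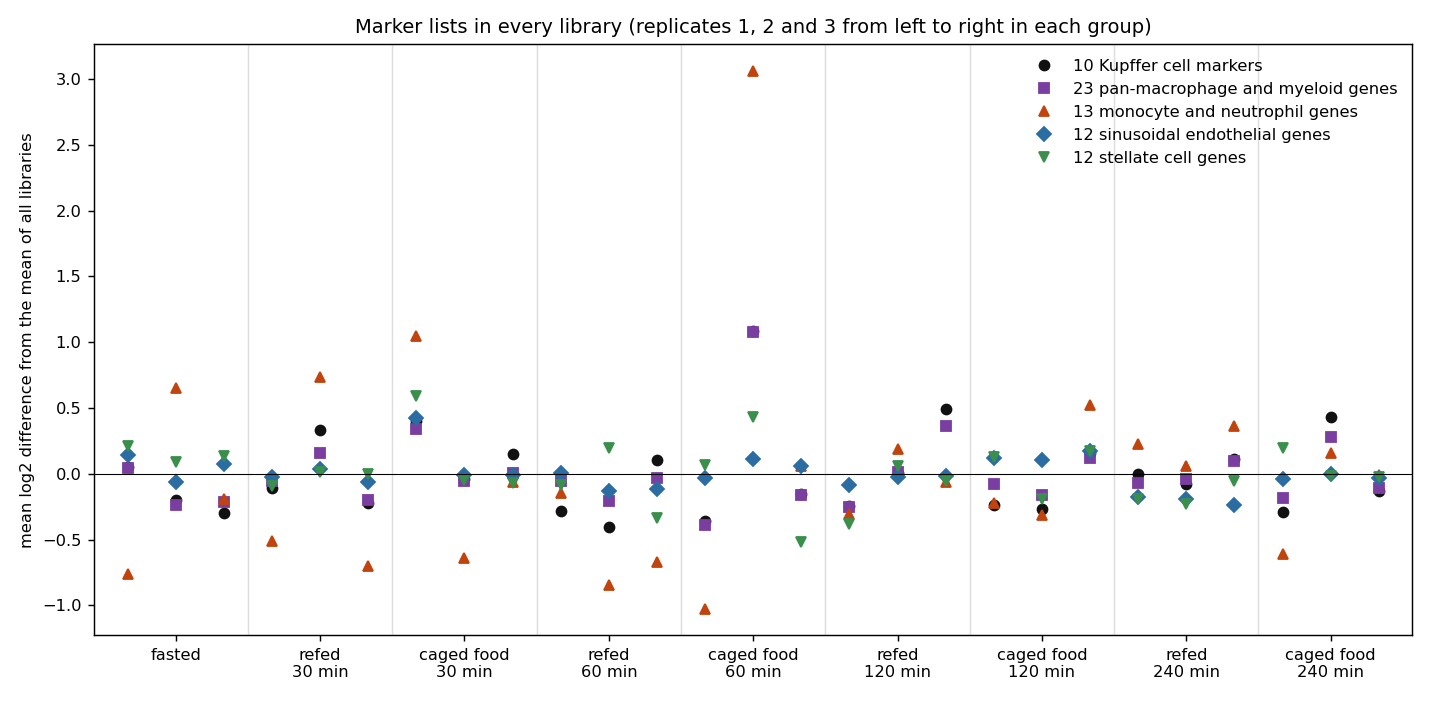
Mean log2 difference of 5 gene lists from the mean of all 27 libraries, by library and group. The 10 markers (circles) and the 23 pan-macrophage genes (squares) run close together, and the monocyte and neutrophil genes (triangles) reach 3.06 in replicate 2 of caged food 60 min.

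The genes whose profile over the 27 livers was most like the mean of the 10 markers were looked for among 11973 other genes with a mean of at least 50 normalised read counts. The 10 with the highest Pearson's r were Lyz2 (0.959), Pik3cd (0.945), Cfp (0.941), Vav1 (0.941), Ctss (0.940), Rac2 (0.936), C1qc (0.934), Fyb (0.928), Sh3kbp1 (0.928) and Tyrobp (0.926), and the median of all candidates was -0.05. Lyz2 encodes lysozyme, Ctss the protease cathepsin S, C1qc the remaining C1q chain and Cfp the complement protein properdin. Without replicate 2 of caged food 60 min the lowest of the 10 was 0.868.

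Further genes of Kupffer cells and their regulation were counted from lists. Of 23 pan-macrophage and myeloid genes, 0 passed in any of the 12 comparisons at single times, and over the means of the times Mrc1, the mannose receptor gene, was lower in refed than in caged food livers (-0.15 ± 0.05, limma adjusted p = 0.0396). That call, in a comparison where 31.3% of all genes passed, was lost without replicate 2 of caged food 60 min (-0.12, limma adjusted p = 0.0767). Its limma adjusted p was 0.0152 to 0.0835 with other single libraries left out, and the call was lost in 19 of 31 alternatives in all. Of 16 other Kupffer cell genes, 0 passed against fasted livers at 30, 60 or 120 min, and at 240 min 1 rose and 1 fell after refeeding (median log2 0.10, against 0.00 over all genes), where 24.3% of all genes were called. The gene that fell was Clec1b, which codes for the podoplanin receptor CLEC-2. It had 456, 400 and 415 normalised read counts in refed livers at 240 min and 586, 729 and 508 in caged food livers, against 606, 642 and 552 in fasted livers, so the refed livers lay below all others of that time. The fold change was -0.50 ± 0.14 against fasted and -0.51 ± 0.14 against caged food (limma adjusted p = 0.0127 and 0.0107; SE). The first was lost without replicate 2 of the fasted group (-0.45, limma adjusted p = 0.0569), and the second without replicate 2 of caged food 240 min (-0.37, limma adjusted p = 0.0838). These 2 calls were lost in 2 of 12 and 3 of 12 alternatives in all.

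The gene that rose was Slc40a1, the iron exporter ferroportin, at 0.32 ± 0.12 (limma adjusted p = 0.0491), and this call was lost when replicate 2 or 3 of the fasted or replicate 1 or 3 of the refed group was left out, with 0.20 in the absence of fasted replicate 2. It was also lost with no filter on low values (limma adjusted p = 0.0867), with the replicate block (0.0512) and without the 2 libraries with conflicting labels (0.105). At 60 min Slc40a1 was higher in refed than in caged food livers (0.42 ± 0.12, limma adjusted p = 0.0241), a call lost without replicate 3 of refed or replicate 1 of caged food livers (limma adjusted p = 0.13 and 0.129). Folr2, a folate receptor, and Fcna, a ficolin, were then lower (-0.83 ± 0.25 and -0.60 ± 0.16, limma adjusted p = 0.0300 and 0.0198). In the absence of replicate 2 of caged food 60 min they were -0.53 and -0.41 and did not pass (limma adjusted p = 0.18 and 0.129). Folr2 also did not pass without replicate 1 or 2 of refed livers (limma adjusted p = 0.131 and 0.0764), nor Fcna without replicate 2 (limma adjusted p = 0.104). Their calls were lost in 5 of 11 (Folr2) and 3 of 11 (Fcna) alternatives in all.

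Of the ligands of CSF1R, Csf1 was called up at 60, 120 and 240 min of refeeding, and Il34 was called down at 240 min only. Csf1 had 904, 876 and 908 normalised read counts in refed livers at 60 min, 920, 882 and 1000 at 120 min and 1192, 1148 and 1130 at 240 min. The fasted livers had 549, 542 and 574, all below every one of these. It rose by 0.69 ± 0.16, 0.75 ± 0.16 and 1.06 ± 0.16 on the log2 scale against fasted (SE; limma adjusted p = 0.0058, 0.00258 and 4.28e-05), and by 0.70, 0.70 and 0.98 against caged food (limma adjusted p = 0.00578, 0.00546 and 8.65e-05). In caged food livers Csf1 lay between 445 and 723 except for 841 in replicate 2 of the 60 min group, the liver with the high markers. Il34 fell, with 50, 50 and 79 normalised read counts in refed livers at 240 min and 114, 109 and 105 in caged food livers, against 133, 129 and 133 in fasted livers. Its fold change was -1.16 ± 0.27 against fasted and -0.90 ± 0.27 against caged food (limma adjusted p = 0.00291 and 0.0167). The second was lost without replicate 1 or 2 of refed or replicate 1 of caged food livers (limma adjusted p of 0.0524 to 0.0774). Csf1r at the same time had 3026, 3077 and 3751 in refed livers, 2621, 4279 and 2680 in caged food livers and 3575, 3045 and 2982 in fasted livers. Of the 4 other tested genes of the list, 0 were called at single times.

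Of 13 transcription factors linked to Kupffer cells, 1 rose and 1 fell at 60 min of refeeding, 3 rose and 2 fell at 120 min and 2 rose and 2 fell at 240 min against fasted livers, where 11%, 14.1% and 24.3% of all genes were called. With caged food 0 did at any time. Hepatocytes and other liver cells express several of these factors too, so their values are not those of Kupffer cells alone. Id3, an inhibitor of helix-loop-helix factors, had 6420, 7372 and 4146 normalised read counts at 120 min of refeeding and 2226, 2211 and 3530 with caged food, against 2144, 1625 and 2885 in fasted livers. It rose by 0.88 ± 0.24 at 60 min, 1.43 ± 0.24 at 120 min and 1.07 ± 0.24 at 240 min (limma adjusted p = 0.0195, 2.65e-04 and 0.00231). The call at 60 min was lost without any of 4 libraries, for example at 0.67 without replicate 2 of the fasted group.

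Nr1h3, the LXR alpha gene, rose by 0.30 ± 0.07 at 120 min and 0.41 ± 0.07 at 240 min (limma adjusted p = 0.00337 and 8.67e-05). Cebpb, a basic leucine zipper factor, fell by 1.23 ± 0.35 at 60 min and 1.20 ± 0.35 at 120 min (limma adjusted p = 0.0239 and 0.0231), and each call was lost without replicate 1 or 2 of the fasted group or replicate 2 or 3 of the refed group (limma adjusted p of 0.0583 to 0.134 at 60 min and 0.0587 to 0.122 at 120 min). Against caged food livers Cebpb was lower by 1.68 at 60 min, 1.44 at 120 min and 1.16 at 240 min (limma adjusted p = 0.00253, 0.00846 and 0.0166). Those calls were lost in 0 of 11, 1 of 10 and 4 of 12 alternatives.

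**Figure D5:**
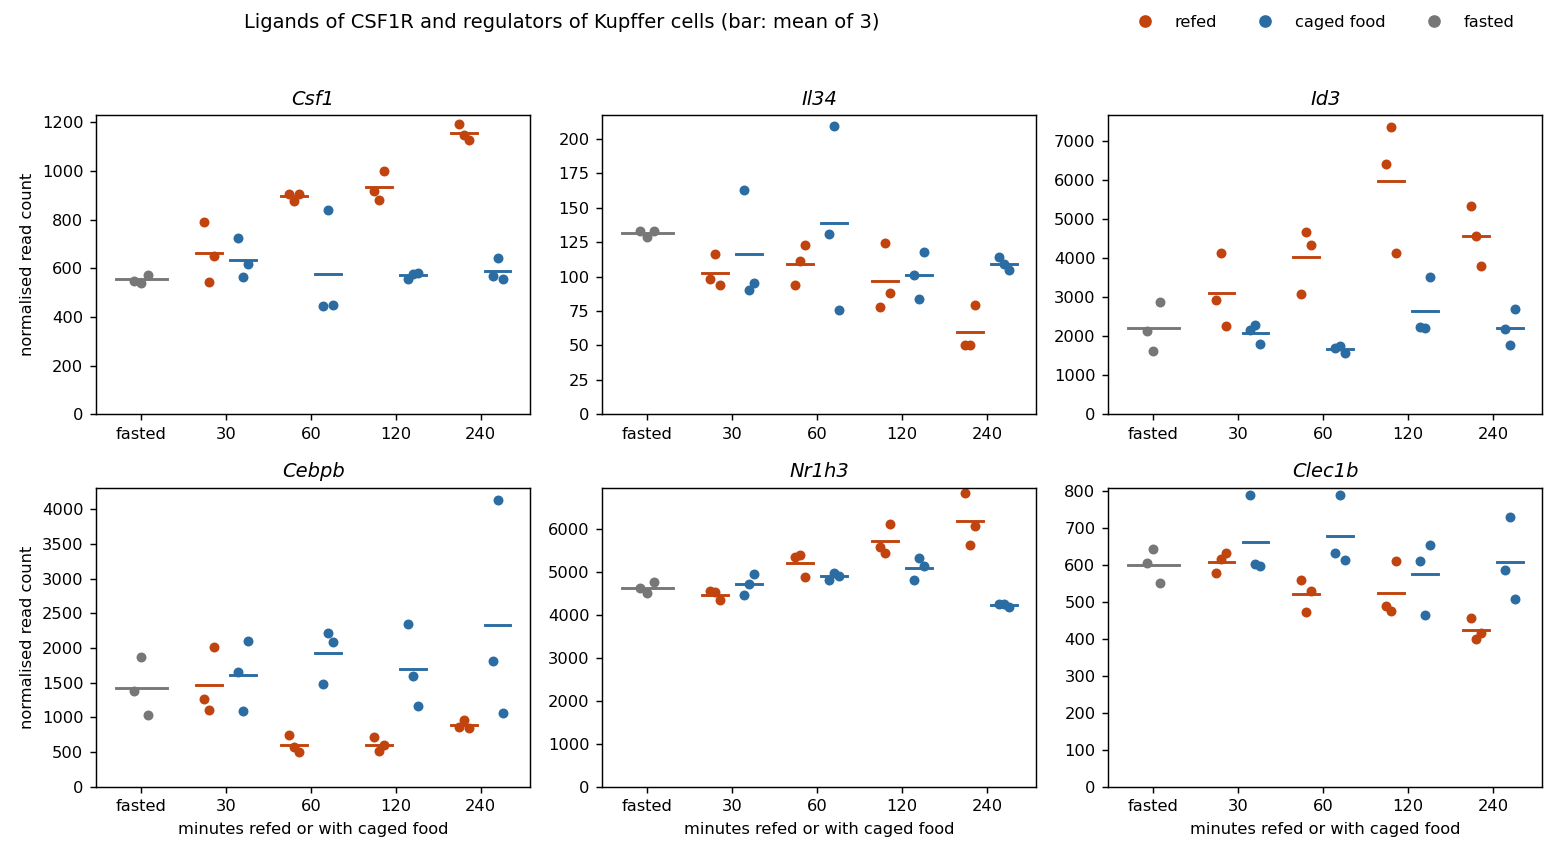
Normalised read counts of Csf1, Il34, Id3, Cebpb, Nr1h3 and Clec1b by time, with 3 points and a bar for the mean in each group (refed left of caged food, fasted at the low end). Refed livers depart with time, Csf1 reaching 1130 to 1192 at 240 min, and Il34 50 to 79.

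Partners of C1q and receptors for dying cells were counted in the same way. Of 10 tested genes of C1 and the classical complement pathway, C4a rose at 240 min of refeeding (1.23 ± 0.37, limma adjusted p = 0.0167), and this was lost without replicate 1 of the fasted group or replicate 2 of the refed group (limma adjusted p = 0.0546 and 0.114). The C4a call was lost in 4 of 12 alternatives in all. C1ra and Serping1, the C1 protease and the C1 inhibitor, were lower in refed than in caged food livers at 60 min (-0.41 ± 0.10 and -0.50 ± 0.14, limma adjusted p = 0.00679 and 0.02), a time at which Serping1 stood at 74046 in the caged food liver with high markers against a median of 43376 elsewhere. Serping1 did not pass without that liver (-0.30, limma adjusted p = 0.138) or without replicate 3 of refed 60 min (limma adjusted p = 0.095). The Serping1 call was lost in 4 of 11 alternatives in all. Of 14 tested efferocytosis genes, Calr, the endoplasmic reticulum chaperone calreticulin, rose at 120 and 240 min of refeeding (0.59 ± 0.19 and 0.99 ± 0.19, limma adjusted p = 0.0373 and 4.53e-04), and the call at 120 min was lost without any 1 of the 6 livers compared (limma adjusted p of 0.0625 to 0.135). Mertk, the macrophage receptor for bridged apoptotic cells, was lower in refed than in caged food livers at 240 min (-0.42 ± 0.11, limma adjusted p = 0.00684), which was lost without replicate 1 of refed 240 min (limma adjusted p = 0.0673).

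Of 18 activation and cytokine genes tested, 1 rose at 30 min, 1 rose and 1 fell at 60 min, 2 rose and 1 fell at 120 min and 1 rose and 2 fell at 240 min of refeeding against fasted, where 1.63%, 11%, 14.1% and 24.3% of all genes were called. Il1a had 380, 353 and 407 normalised read counts at 30 min of refeeding and 289, 210 and 274 with caged food, against 172, 144 and 162 in fasted livers. It rose by 1.25 ± 0.19 at 30 min and 1.29 ± 0.19 at 60 min (limma adjusted p = 6.26e-04 and 6.03e-05). Against caged food livers it was not called at 30 min and was higher by 1.01 at 60 min (limma adjusted p = 9.75e-04). Nfkbia, the inhibitor of NF-kB, fell by 0.77 ± 0.12 at 60 min, 0.38 ± 0.12 at 120 min and 0.66 ± 0.12 at 240 min (limma adjusted p = 1.28e-04, 0.0340 and 2.83e-04). The call at 120 min was lost without any 1 of the 6 livers compared (limma adjusted p of 0.0601 to 0.0997).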

How the data were processed

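The authors deposited 1 table of normalised read counts per gene. Its values are whole numbers with a constant step per library, as counts scaled and then rounded would give, so each value is a score that the authors normalised before it was deposited, not a raw count. Per the submitters' processing notes, reads were aligned to mm10 (GRCm38) with STAR 2.4.0a and counted with featureCounts 1.4.5-p1 of Subread. How the factors were made is not given in the sources used here.

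Groups follow the sample titles. The test took the 15932 genes reaching 10 in 3 or more libraries. Log2 of the value plus 1 was fitted with limma 3.58.1 (mean-variance trend, R 4.3.3) to the 9 group means of 27 libraries, with Benjamini-Hochberg adjustment over all genes tested and a threshold of 0.05. A fold change on this scale is understated for low genes. Tests were checked on simulated data. Correlations used residuals from group means. GENCODE M21 gave coordinates for 45143 identifiers (98.8%). Replicate numbers did not pair the libraries (mean correlation -0.00944 over 108 same-numbered pairs). The design text speaks of 60 samples, and those beyond the 27 were not analysed here. The markers and gene lists were chosen with earlier results of these data known. From each list at most 4 called genes of lowest p are named. One gene of the transcription factor list is counted but not reported here. Alternatives were another pseudocount, quantile normalization, no filter, a replicate block, other uses of doubtful libraries, and each library left out.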

Additional observations from a re-analysis of the deposited data

How the results depend on the processing

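Of the 10 markers, 0 were called in any comparison or F test under a pseudocount of 5, quantile normalization, no filter on low values or the replicate block. The same held under any treatment of the 2 libraries with conflicting labels, rerun for 240 min, the means over times and the F tests. It also held without 3 libraries that stood apart (caged food 30 min replicate 1, caged food 60 min replicate 2 and refed 30 min replicate 1). These runs covered 30 min, 60 min, the means over times and the F tests. Leaving caged food 60 min replicate 2 alone out of the correlations was chosen after seeing the data. Each of 27 libraries was also left out in turn, in the comparisons and F tests that use its group. The count stayed at 0, except for refed against caged food at 60 min, where it was 0 to 1. Comparisons that do not include the caged food 60 min group were thus not rerun without its replicate 2 alone. The replicate number paired no livers (8 of 27 were closest to a liver of their own number), and the block changed no marker call and moved the number of all genes called for caged food 60 min against fasted to 20 from 35. That number was 19 with quantile normalization, 14 without a filter and 14 without the 3 libraries. For refed against caged food at 30 min it was 20 without them and 44 with them, and for caged food 240 min against fasted 1 without a filter and 0 with it. By the treatment label, the number of genes called was 0 for refed 240 min against fasted (3879 by title), 1 for refed against caged food at 240 min (4303), 1 for caged food 240 min against fasted (0), 247 for the refed mean against fasted (2382), 1656 for refed against caged food over the means (4990), 1880 among the 9 groups (5539) and 43 for the change over time (1588). The cause was not tested. By that label the called differences of Ccl3 (1.34) and Tspan8 (-0.87) in refed against caged livers after 240 min turned to -0.34 and 0.21. Leaving out 1 library gave 89 to 200 genes for refed 30 min against fasted (260), 2 to 34 for caged food 60 min against fasted (35) and 8 to 31 for refed against caged food at 30 min (44), with fewer livers in each. All 45 pairs of markers stayed correlated with a pseudocount of 5 and with quantile normalization, and 44 without the 3 libraries. With 3 fasted livers, the standard error of a marker's mean refed change was 0.17 to 0.48 (log2), which limits what could be detected. The pooled spread behind it includes caged food 60 min replicate 2. Without that liver the standard deviation within groups was lower in all 10 markers, for example 0.19 against 0.28 for Clec4f.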
